A study of Mus musculus with 9 samples.

Results

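The 10 genes described here are markers used to recognise fibroblasts and their mesenchymal relatives: Pdgfra, Pdgfrb, Thy1, Cd34, Ly6a, Dpt, Pi16, S100a4, Twist1 and Tcf21. They were taken by name from the 29915 genes of the count table, and all 10 were found. RNA came from cultured mouse embryonic fibroblasts, cells grown out of mouse embryos, of 1 line labelled mutator (5 libraries) and 1 line labelled wild type, WT (4 libraries). In mouse work, mutator usually names animals whose mitochondrial DNA polymerase cannot proofread; the labels give neither the allele, the strain, the embryos' age nor the passage number. Both lines were untreated, were seeded in 6-well plates and were harvested after 48 h, and the libraries of a line are technical replicate wells of 1 cell line. The p-values therefore measure the spread between wells, and genotype cannot be told apart from any other difference between the lines. The study's stated interest was the expression of proteasome subunits, which are not described here.

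Fibroblasts have no single defining gene, so they are recognised by combinations. PDGFRα and PDGFRβ are receptor tyrosine kinases that bind platelet-derived growth factors and drive mesenchymal cells to divide and migrate. Ly6a (Sca-1) and Thy1 (CD90) are surface proteins held in the membrane by a lipid anchor, and Cd34 is a sialomucin; sorting for these separates fibroblast and progenitor subsets, though each also marks other cells. Dermatopontin (Dpt) is a secreted matrix protein and Pi16 is named as a peptidase inhibitor, and both mark the adventitial fibroblasts shared by many organs. S100a4, once called fibroblast-specific protein, is a calcium-binding protein also made by macrophages. Twist1 and Tcf21 are basic helix-loop-helix (bHLH) transcription factors of mesenchyme, the second best known in epicardium, kidney and lung.

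Depth ran from 32045662 to 49511365 counts per mutator library and from 26341230 to 36238653 per WT library. Levels are given in CPM, the read counts scaled to library size with edgeR's TMM factors. The labelled cell type was checked against further fibroblast genes. Vim, the intermediate filament of mesenchyme, averaged 3137 CPM in mutator and 1724 CPM in WT. The type I collagen genes Col1a1 and Col1a2 averaged 2685 and 2586 CPM in mutator, against 793 and 205 CPM in WT. Decorin (Dcn) and lumican (Lum), small proteoglycans abundant in most fibroblasts, were at or near 0: Dcn averaged 0.0249 CPM in mutator and 0.0756 CPM in WT, and Lum had no counts in mutator and 0.00694 CPM in WT. Thus some defining fibroblast genes were strongly expressed and others hardly detected, in both lines.

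The 10 markers were also divided between expressed and hardly detected genes. Of them, 6 passed the filter on low counts and were tested, while Thy1, Dpt, Pi16 and Tcf21 lay below it in both lines. Among the 6, Ly6a and Pdgfrb were higher in mutator, Pdgfra, Cd34 and Twist1 were lower, and S100a4 did not pass the threshold (edgeR quasi-likelihood test, adjusted p under 0.05). Across all 13345 genes tested, 79.9% passed, and 40.7% of all were higher and 39.2% lower in mutator, so 2 higher and 3 lower among 6 is near the background. The libraries of the lines did not overlap for 5 of the 6, against 71.9% of all genes tested. Ly6a was the only marker of the 6 to change at least 2-fold, as 17.8% of all tested genes did. The median absolute log2 fold change of the 6 was 0.38, and that of all tested genes 0.35.

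**Figure D1:**
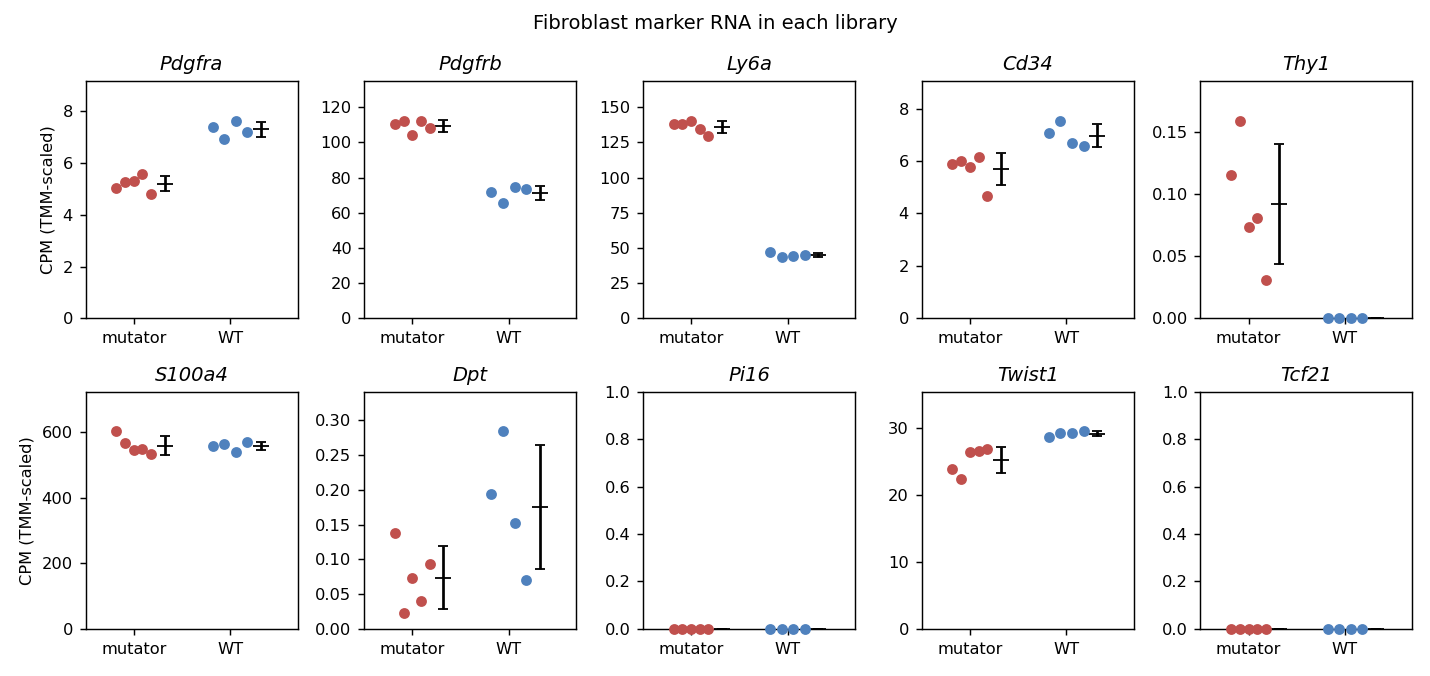
CPM (TMM-scaled, linear axes from 0, a different range in each panel) of the 10 markers; each point is 1 library, mutator in red and WT in blue, and the bar beside each group is the mean with its SD. Ly6a and Pdgfrb are higher and Pdgfra, Cd34 and Twist1 lower in every mutator library, S100a4 overlaps, and Thy1, Dpt, Pi16 and Tcf21 stay below 0.3 CPM.

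Both platelet-derived growth factor receptors were expressed, and they differed between the lines in opposite directions. Pdgfrb (GRCm38 chromosome 18, 61045127 to 61085067) was at 110.2, 112, 104, 112 and 108 CPM in the mutator libraries, against 71.9, 65.3, 74.8 and 73.3 CPM in the WT libraries. Every mutator library lay above every WT library. The log2 fold change was 0.62 ± 0.036 (SE; edgeR adjusted p = 2.1e-11), a 1.54-fold rise. Pdgfra (chromosome 5, 75151322 to 75198206) was far lower: 5.03, 5.26, 5.33, 5.58 and 4.82 CPM in the mutator libraries, against 7.41, 6.95, 7.65 and 7.21 CPM in the WT libraries. Here every mutator library lay below every WT library. Its log2 fold change was -0.48 ± 0.065 (SE; edgeR adjusted p = 2.14e-06), a 1.40-fold fall. In a bulk sample, fewer cells carrying a receptor and less RNA per cell cannot be told apart.

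The balance of the receptors shifted accordingly. The CPM of Pdgfrb was 19.5 to 22.5 times that of Pdgfra in the mutator libraries and 9.40 to 10.2 times in the WT libraries. The log2 ratio of Pdgfra to Pdgfrb was -4.38 ± 0.083 in mutator (SD, n = 5) and -3.28 ± 0.045 in WT (SD, n = 4), a difference of -1.11. The exact two-sided permutation p was 0.0159, the smallest that 5 against 4 libraries can give. Since neither receptor overlapped between the lines and they differed in opposite directions, this p was already fixed and adds no support. Pdgfrb also marks pericytes and other mural cells of vessels. Of 9 mural cell markers, 5 were tested. Des did not pass (log2 fold change -0.46, edgeR adjusted p = 0.167), at 0.217 CPM in mutator and 0.296 CPM in WT. The other 4 were higher in mutator: Cspg4 (2.04-fold), Mcam (2.22-fold), Notch3 (3.17-fold) and Anpep (8.43-fold). Myh11, not tested, averaged 0.0937 CPM in mutator and 0.0671 CPM in WT. Relative to the median of chromosome 9, where both lie, the log2 fold changes of Cspg4 and Mcam were 0.63 and 0.75, against 1.03 and 1.15 as tested. The 9 summed to 393 to 427 CPM in mutator and 183 to 198 CPM in WT. Most of that sum was Cspg4 (286 CPM in mutator, 140 CPM in WT) and Mcam (95.2 CPM in mutator, 42.8 CPM in WT). The defining pericyte genes Rgs5, Abcc9 and Kcnj8 were at or near 0, at 0.0203, 0 and 0 CPM in mutator and 0.0794, 0.00884 and 0 CPM in WT.

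Genes of the ligands and of the proteins that carry the receptor signal moved both ways. All 18 genes of this list were tested; 7 rose, 8 fell and 3 did not pass, with a median log2 fold change of 0.03, against 0.01 for all tested genes. Of all tested genes 40.7% were higher and 39.2% lower. Relative to chromosome medians, 7 of the list were higher and 6 lower. Pik3ca and Shc1, on chromosome 3, moved from -0.66 and -0.70 to 0.08 and 0.04 (log2), and Nck1, on chromosome 9, from 0.11 to -0.29. Among the ligands, Pdgfb averaged 1.28 ± 0.329 CPM in mutator (SD, n = 5) and 8.97 ± 0.311 CPM in WT (SD, n = 4), a 7.11-fold fall. Pdgfd, which signals mainly through PDGFRβ, averaged 5.18 ± 0.34 CPM in mutator and 15.1 ± 0.494 CPM in WT, a 2.91-fold fall. Pdgfc fell by 0.26 on the log2 scale, but it lies on chromosome 3 and rose by 0.48 (log2) relative to that chromosome's median. Pdgfa averaged 19.0 ± 0.792 CPM in mutator and 17.8 ± 1.03 CPM in WT and did not pass (log2 fold change 0.10, edgeR adjusted p = 0.0748). Plcg1, the phospholipase recruited to activated receptors, rose 2.18-fold, with 89.8 ± 2.32 CPM in mutator and 41.2 ± 1.13 CPM in WT.

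Ly6a showed the widest difference of the 6 tested markers. Ly6a (chromosome 15, 74994877 to 74998031) was at 138, 138, 141, 135 and 129 CPM in the mutator libraries, against 46.8, 43.8, 44.3 and 45.0 CPM in the WT libraries. The gap between the groups was many times the spread within either. Its log2 fold change was 1.60 ± 0.032 (SE, 95% interval 1.54 to 1.66; edgeR adjusted p = 3.57e-18), a 3.03-fold rise, and 92.8% of all tested genes had a lower log2 fold change. Ly6a lies in a cluster of related genes, whose reads may be lost or split where their sequences are near-identical. Its neighbour Ly6c1, a surface protein of the same fold, also rose: 24.8 ± 2.14 CPM in mutator and 8.42 ± 0.45 CPM in WT, 2.94-fold. Ly6e, in the same cluster, fell 1.22-fold. Of the 7 tested genes starting within 500 kb of Ly6a, 3 rose and 4 fell, with log2 fold changes from -1.08 to 1.55, so none exceeded Ly6a.

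In the wider Ly6 and urokinase receptor family, 20 of 21 listed genes were found and 8 were tested, of which 4 rose and 4 fell (median log2 fold change 0.02). Lypd6 fell 6.00-fold, with 3.37 ± 0.223 CPM in mutator and 20.3 ± 1.04 CPM in WT. Lynx1, a modulator of nicotinic acetylcholine receptors, rose 1.48-fold. Among 11696 other genes at a mean of at least 1 CPM, the profiles over the 9 libraries nearest to that of Ly6a, as centred log2 CPM, were those of Ppl, Mfap3l and Oxr1 (root mean square distances 0.043, 0.0466 and 0.0477). Their log2 fold changes were 1.58, 1.66 and 1.64. Such closeness to Ly6a follows from the distance, which includes the difference between the lines.

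Cd34 and Thy1, also surface markers, were low. Cd34 (chromosome 1, 194938821 to 194961292) was at 5.88, 6.01, 5.79, 6.14 and 4.66 CPM in the mutator libraries, against 7.08, 7.55, 6.70 and 6.57 CPM in the WT libraries. The groups did not overlap, and mutator replicate 5 was the lowest of the 9. The log2 fold change was -0.28 ± 0.079 (SE; edgeR adjusted p = 0.00313), a 1.22-fold fall. Thy1 (chromosome 9, 44043384 to 44048579) had 5, 7, 3, 4 and 1 counts in the mutator libraries and no count in any WT library. Summed over libraries that is 20 counts in mutator. Against a floor of 3 counts over the WT libraries, Thy1 was at least 3.93-fold higher in mutator, a lower bound that leaves out the counting error of the 20. The exact two-sided permutation p was 0.0159, again the smallest possible, but 20 counts in 209260437 is close to the limit of detection: the mean was 0.0917 CPM.

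Cd34 and Ly6a are also genes of blood and vessel cells, so markers of these were read alongside. Of 10 endothelial markers, 3 were tested; Egfl7 rose (log2 fold change 0.57, or 0.26 relative to its chromosome's median), Flt1 fell (-0.53) and Kdr did not pass (-0.39). The sum of the 10 was 14.95 to 15.96 CPM in mutator and 11.4 to 12.1 CPM in WT, and Egfl7 alone averaged 13.9 CPM in mutator and 9.34 CPM in WT. Of those not tested, Pecam1, Cdh5, Tie1 and Emcn averaged 0.029, 0.00863, 0 and 0 CPM in mutator and 0.0385, 0, 0 and 0 CPM in WT. Tek, Vwf and Esam averaged 0.0231, 0.08 and 0.101 CPM in mutator and 0.369, 0.111 and 0.0699 CPM in WT. Of 10 haematopoietic markers, 2 were tested and both rose: Cd68, a lysosomal protein not limited to blood cells, averaged 3.84 CPM in mutator and 2.32 CPM in WT, and Csf1r 0.343 CPM in mutator and 0.0568 CPM in WT. The sum of the 10 was 3.93 to 4.72 CPM in mutator and 2.47 to 2.82 CPM in WT. The pan-leukocyte gene Ptprc averaged 0.0296 CPM in mutator and 0.0079 CPM in WT, and Adgre1, Tyrobp, Cd52 and Kit had no counts in any library. Itgam, Fcer1g and Laptm5, also not tested, averaged 0.025, 0.199 and 0.00461 CPM in mutator and 0.153, 0.0875 and 0.00951 CPM in WT.

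The adventitial markers were hardly detected or not detected. Dpt (chromosome 1, 164796663 to 164824274) had 6, 1, 3, 2 and 3 counts in the mutator libraries and 7, 9, 4 and 2 counts in the WT libraries. The ranges in CPM overlapped, from 0.0227 to 0.138 in mutator and from 0.0707 to 0.284 in WT. The ratio of summed counts, 15 in mutator and 22 in WT, was 0.402 (exact 95% Clopper-Pearson interval 0.194 to 0.811, counting error only), and the exact two-sided permutation p over libraries was 0.0794. With no low-count filter, edgeR gave Dpt a log2 fold change of -1.27 (adjusted p = 0.031) and Thy1 one of 4.87 (adjusted p = 0.00083). Of 19125 genes then tested, 31.8% were called higher and 28.9% lower in mutator. Pi16 (chromosome 17, 29318796 to 29328903) had no counts in any library of either line, which allows a level of up to 0.0143 CPM in mutator and 0.0243 CPM in WT.

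The sequence before the Dpt start is shown because it holds many E-boxes, the short sites that bHLH factors such as Twist1 and Tcf21 bind. Of the 10 markers, 7 had an entry among 32851 RefSeq start sites (GRCm38), and the 250 bases before each listed start were searched for E-boxes, CANNTG, a pattern that is its own reverse complement and so covers both strands. Dpt held 6 E-boxes, while 0.274% of all start sites held 6 or more and 66.2% held at least 1. Dpt was picked as the highest of the 7, so this share overstates how rare its count is. Whether Twist1 or Tcf21 binds any of these sites, or whether they bear on the level of Dpt, was not tested. For Pdgfra and Pi16 the listed start is that of a transcript beginning inside the gene's outer bounds. Pdgfra held 1 E-box, and Cd34, S100a4, Twist1, Tcf21 and Pi16 held none in this window. The E-boxes are in capitals in the 250 bases before the Dpt start (chr1:164796413-164796662, plus strand).
Dpt: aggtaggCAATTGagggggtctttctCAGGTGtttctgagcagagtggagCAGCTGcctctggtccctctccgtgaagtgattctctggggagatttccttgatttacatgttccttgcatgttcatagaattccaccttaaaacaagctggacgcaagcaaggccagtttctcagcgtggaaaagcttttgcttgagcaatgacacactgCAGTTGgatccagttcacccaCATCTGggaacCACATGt

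Other genes of adventitial fibroblasts ranged from abundant to undetected. Of 20 such genes, 10 passed the low-count filter; 5 rose, 4 fell and Mfap5 did not pass (median log2 fold change 0.33). Ackr3, a scavenging chemokine receptor listed under its older symbol Cxcr7, rose 23.2-fold, with 17.6 ± 0.557 CPM in mutator and 0.772 ± 0.281 CPM in WT. Ly6c1, already described, rose 2.94-fold. The most abundant were Anxa3, with 632 CPM in mutator and 676 CPM in WT, the matrix gene Fbn1 (fibrillin-1), with 399.9 CPM in mutator and 518 CPM in WT, and Sema3c, with 249.4 CPM in mutator and 111 CPM in WT. The complement gene C3 fell 2.88-fold, with 5.92 ± 1.99 CPM in mutator and 17.0 ± 1 CPM in WT. The defining adventitial gene Dpp4, which is often paired with Pi16, averaged 0.178 CPM in mutator, while WT had no count of it. Clec3b, another such gene, averaged 0.0843 CPM in mutator and 0.0341 CPM in WT.

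S100a4 was the most abundant of the 10 markers and the only tested one that did not pass. S100a4 (chromosome 3, 90603770 to 90606045) was at 603, 569, 545, 549 and 533 CPM in the mutator libraries, against 559, 566, 541 and 570.3 CPM in the WT libraries. The WT range lay wholly within the mutator range. The log2 fold change was 0.002 ± 0.031 (SE), with a 95% interval from -0.06 to 0.06 (edgeR adjusted p = 0.957). Only 0.397% of all tested genes had a smaller absolute log2 fold change. In GENCODE M21 a further protein-coding model on the same strand, Gm42674, overlaps S100a4, so reads in the overlap may have been split or left out of its count.

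Most other genes of chromosome 3 were lower in mutator. The 611 tested genes of chromosome 3 had a median log2 fold change of -0.73, and 84.6% of them lay below S100a4. Relative to that median, S100a4 was higher in mutator by 0.74 on the log2 scale (edgeR adjusted p = 2.74e-13). On this scale 38.9% of all tested genes were called higher and 39.0% lower in mutator, and the other 5 tested markers kept their directions and calls. Of the 19 tested genes that start within 500 kb of S100a4, 15 fell and 3 rose, with a median log2 fold change of -0.77. S100a6, whose start lies 9.1 kb from that of S100a4, fell 1.85-fold, with 1119 ± 26.2 CPM in mutator and 2068 ± 66.3 CPM in WT.

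**Figure D2:**
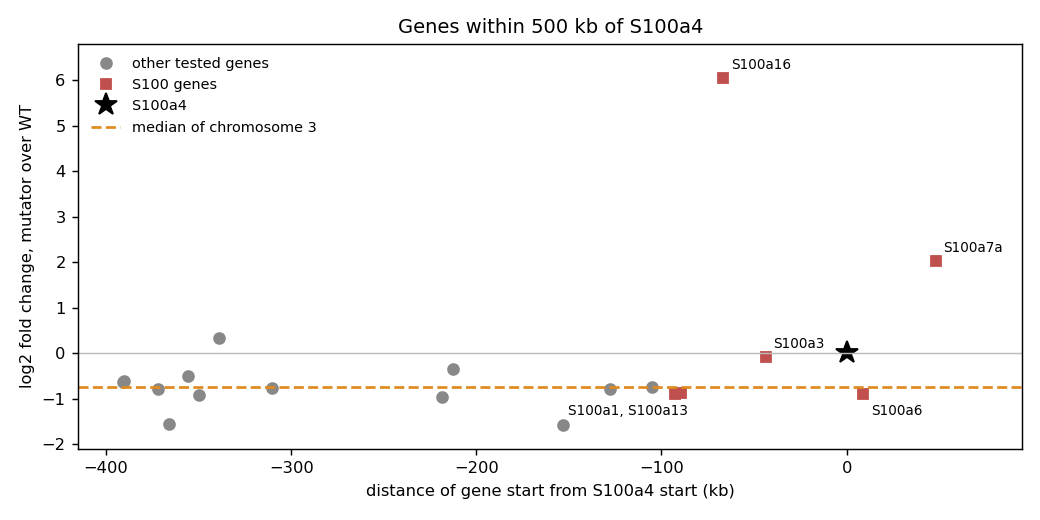
Log2 fold change (mutator over WT) of each tested gene starting within 500 kb of S100a4, against the distance of its start in kb; S100 genes are red squares, other genes grey circles and S100a4 a black star. Most genes lie near the chromosome 3 median of -0.73 (dashed), while S100a4 (0.002) and S100a3 (-0.08) lie near 0 and S100a7a (2.03) and S100a16 (6.05) far above.

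The S100 family, small calcium-binding proteins mostly encoded in this cluster, was divided. Of 15 other family genes, 8 were tested; 5 fell, 2 rose and S100a3 did not pass, with a median log2 fold change of -0.78. S100a16 rose 66.1-fold, with 38.6 ± 0.895 CPM in mutator and 0.575 ± 0.0764 CPM in WT. S100a7a rose 4.10-fold, with 10.02 ± 0.452 CPM in mutator and 2.46 ± 0.28 CPM in WT. S100a11 fell 1.95-fold, with 445 ± 15 CPM in mutator and 868 ± 5.68 CPM in WT. Relative to the chromosome median 4 rose and 4 fell: S100a3 (0.65) and S100a10 (0.06) were then higher, and S100a1 (-0.15), S100a6 (-0.15), S100a11 (-0.23) and S100a13 (-0.15) stayed lower. S100a8 and S100a9, the pair made by myeloid cells, were at or near 0: S100a8 averaged 0.00863 CPM in mutator and 0.0165 CPM in WT, and S100a9 had no counts.

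The sequence before the S100a4 start is shown because it holds few CpG pairs and a TATA box at the usual distance from a start. It has 2 CpG in 250 bases, where the median start site has 6, and a TATAAA beginning 31 bases before the start, in capitals below. TATAAA, or TTTATA as it reads on the other strand, occurs anywhere in the 250 bases of 12.4% of start sites. The share with it at this distance was not counted. The bases are those of chr3:90603520-90603769, plus strand.
S100a4: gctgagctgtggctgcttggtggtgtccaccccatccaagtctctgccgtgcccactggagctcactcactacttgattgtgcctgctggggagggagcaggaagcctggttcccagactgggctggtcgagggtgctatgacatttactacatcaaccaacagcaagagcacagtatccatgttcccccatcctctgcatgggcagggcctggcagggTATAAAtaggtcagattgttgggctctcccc

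Of the transcription factors, Twist1 was expressed in both lines and Tcf21 was detected in neither. Twist1 (chromosome 12, 33957671 to 33959831) was at 23.8, 22.3, 26.3, 26.6 and 26.8 CPM in the mutator libraries, against 28.6, 29.2, 29.1 and 29.4 CPM in the WT libraries. Each mutator library lay below each WT library, and the mutator libraries were more spread. The log2 fold change was -0.21 ± 0.05 (SE; edgeR adjusted p = 0.000897), a 1.16-fold fall. Tcf21 (chromosome 10, 22817263 to 22820143) had no counts in any of the 9 libraries, which allows a level of up to 0.0143 CPM in mutator and 0.0243 CPM in WT. The 250 bases before the 2 starts are shown for both factors. Twist1 (chr12:33957421-33957670, plus strand) holds 18 CpG and Tcf21 (chr10:22820144-22820393, minus strand) holds 5, where the median start site has 6. S100a4, the most abundant marker, holds 2. Capitals mark TATAAA, which occurs in the Twist1 window, farther from the start than in S100a4, and not in the Tcf21 window. Whether CpG pairs or TATAAA bear on the levels of these genes was not tested.
Twist1: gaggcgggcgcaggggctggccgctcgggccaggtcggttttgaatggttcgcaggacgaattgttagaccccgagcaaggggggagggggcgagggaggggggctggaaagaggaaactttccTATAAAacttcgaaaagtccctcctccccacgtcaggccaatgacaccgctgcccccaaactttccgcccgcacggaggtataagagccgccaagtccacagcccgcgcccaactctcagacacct
Tcf21: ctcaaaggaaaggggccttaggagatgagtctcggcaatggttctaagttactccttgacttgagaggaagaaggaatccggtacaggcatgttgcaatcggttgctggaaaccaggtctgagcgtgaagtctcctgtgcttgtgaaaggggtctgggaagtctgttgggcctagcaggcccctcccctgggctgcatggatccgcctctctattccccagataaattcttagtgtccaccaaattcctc

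The bHLH factors act as pairs with E proteins, and Id proteins block that pairing. Of 13 such genes and relatives, 9 were tested; 3 rose and 6 fell (median log2 fold change -0.11). Twist2, the closest relative of Twist1, averaged 21.3 ± 1.53 CPM in mutator and 25.8 ± 1.38 CPM in WT, a 1.21-fold fall. The E protein genes Tcf12 and Tcf3 rose 1.58-fold and 1.57-fold; Tcf12 averaged 232 ± 7.36 CPM in mutator and 146.5 ± 6.57 CPM in WT. Relative to the medians of their chromosomes the log2 fold change was 0.26 for Tcf12, on chromosome 9, and 0.86 for Tcf3, on chromosome 10, both still past the threshold. The other E protein gene of the list, Tcf4, had a log2 fold change of -0.09 and also passed as lower. Id3 fell 1.34-fold, with 123 ± 10.7 CPM in mutator and 165 ± 8.75 CPM in WT, but it lies on chromosome 4 and did not pass relative to that chromosome's median (log2 -0.07, edgeR adjusted p = 0.216). Hand1 and Hand2, factors of heart and limb mesenchyme, had no counts.

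Other transcription factors of mesenchyme and epicardium moved both ways. Of 20 listed genes 17 were tested; 11 rose, 4 fell and Zeb1 and Foxc1 did not pass, with a median log2 fold change of 0.70. Osr2 rose 9.13-fold, with 2.26 ± 0.228 CPM in mutator and 0.246 ± 0.0781 CPM in WT. Msx2, a factor of limb and skull mesenchyme, fell 7.45-fold, with 2.62 ± 0.297 CPM in mutator and 19.6 ± 0.498 CPM in WT. Gata4, a factor of heart and gonad, had 1 count in all mutator libraries together and 367 counts in WT; the ratio of WT to mutator was 623 (exact 95% Clopper-Pearson interval 111 to 24660). Of the factors that share an epicardial role with Tcf21, Tbx18 was present, at 28.6 ± 0.967 CPM in mutator and 23.7 ± 1.07 CPM in WT, and Wt1 had 0.00401 CPM in mutator and no counts in WT.

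**Figure D3:**
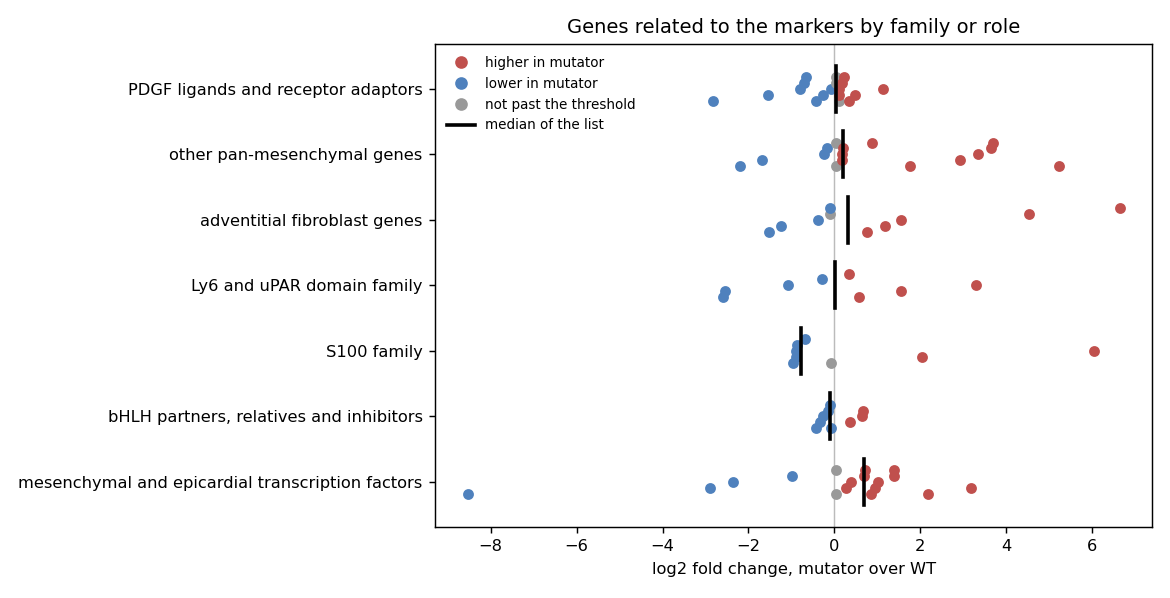
Log2 fold change (mutator over WT) of each tested gene in 7 lists of genes related to the markers by family or role; red points rose, blue fell, grey did not pass the threshold, and the black line is the list's median. Medians run from -0.78 (S100 family) to 0.70 (mesenchymal and epicardial transcription factors).

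Among other pan-mesenchymal genes, 16 of 20 were tested; 10 rose, 4 fell and Ddr2 and Vcam1 did not pass (median log2 fold change 0.19). Endoglin (Eng), a coreceptor for transforming growth factor β that also marks mesenchymal stromal cells, rose 37.7-fold, with 74.2 ± 3.97 CPM in mutator and 2.01 ± 0.496 CPM in WT. Podoplanin (Pdpn), a surface mucin of reticular and activated fibroblasts, rose 13.01-fold, with 72.4 ± 1.75 CPM in mutator and 5.54 ± 0.203 CPM in WT. Col1a2 rose 12.6-fold. Of the genes on this list that were not tested, Fap, the fibroblast activation protein, averaged 0.166 CPM in mutator and 0.14 CPM in WT, and Ngfr had no counts.

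Markers of other cell types gave the following values beside these. Of 10 epithelial markers, 4 were tested; Krt19 rose (log2 fold change 2.54), Krt18 (-6.33) and Cdh1 (-3.44) fell and Cldn7 (-0.52) did not pass, and the sum was 162 to 179 CPM in mutator and 131 to 138 CPM in WT. Most of that sum was Krt19 in mutator (170 CPM, against 29.3 CPM in WT) and Krt18 in WT (104 CPM, against 1.30 CPM in mutator). Epcam and Krt8 averaged 0.0647 and 0.0549 CPM in mutator, against 0.196 and 0.115 CPM in WT. Of 7 mesothelial markers, Msln (-0.90) and Krt7 (-1.98) were tested and fell, and the sum was 125.9 to 138.9 CPM in mutator and 246 to 251 CPM in WT; Muc16 had no counts. Among 8 adipocyte progenitor markers, Dlk1, Cebpa and Lpl rose, Fabp4 fell and Pparg did not pass. The sum was 35.7 to 39.1 CPM in mutator and 35.3 to 38.2 CPM in WT, most of it Pparg (30.4 CPM in mutator, 28.8 CPM in WT). Dlk1 averaged 2.61 CPM in mutator and had no counts in WT. Fabp4 averaged 2.36 CPM in mutator and 7.59 CPM in WT. Zfp423, Adipoq and Plin1 were at or near 0 in both lines. The 7 Schwann and neural crest markers summed to 3.798 to 5.098 CPM in mutator and 8.27 to 9.27 CPM in WT, with 1 of 2 tested higher and 1 lower, and Sox10 and Foxd3 without counts. The part of other cell types in the markers' differences was not tested.

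The order of the markers by level per length (CPM per kb of annotated exon, GENCODE M21) differed between the lines at 1 place. In mutator it ran S100a4 (958), Ly6a (113), Pdgfrb (19.98), Twist1 (15.5), Cd34 (0.782), Pdgfra (0.519), Dpt (0.0426) and Thy1 (0.0306). In WT it ran S100a4 (957), Ly6a (37.3), Twist1 (17.9), Pdgfrb (13.02), Cd34 (0.957), Pdgfra (0.729) and Dpt (0.102). Pdgfrb thus stood above Twist1 in mutator and below it in WT. The ranges of neighbours in these orders did not overlap, except Dpt and Thy1 in mutator. The lengths sum all annotated exons of a gene, so a gene with many alternative exons can be placed too low.

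**Figure D4:**
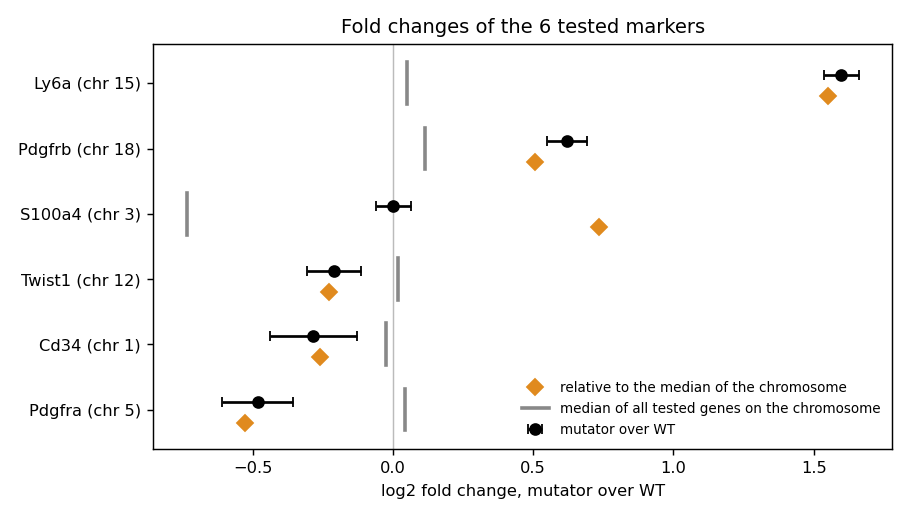
Log2 fold change (mutator over WT) of the 6 tested markers: black points with 95% intervals are the values as tested, orange diamonds the values relative to the median of the gene's chromosome, and grey bars that median. For 5 markers the black and orange values lie close together, and for S100a4 they stand at 0.002 and 0.74 because the chromosome 3 median is -0.73.

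Pdgfra had the lowest log2 fold change of the tested markers. Among the profiles nearest to it over the 9 libraries were those of Tubb2a and Rcl1 (root mean square distances of centred log2 CPM 0.0347 and 0.038). Each had a log2 fold change of -0.46, a closeness that again follows from the distance. Of 13 tested genes starting within 500 kb of Pdgfrb, 6 rose and 4 fell, and 3 exceeded it. Of 18 near Thy1, 14 rose and 3 fell, with a median of 0.41, close to the chromosome 9 median of 0.40. Of 12 near Pi16, 11 fell and none rose, with a median of -0.26, that of chromosome 17. Pdgfra and Twist1 each had 1 tested neighbour, which was lower in mutator in both cases.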

How the data were processed

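Poly(A)-selected, strand-specific libraries from 5 mutator and 4 WT wells were analysed. The authors deposited raw counts per gene, made with STAR 2.4.2a and HTSeq on mm10 per the submitters' processing notes. The annotation, the strand setting and the treatment of multi-mapping reads are not known from the sources used here (not given). Without a known strand setting, reads of Pdgfra, Cd34 and Dpt cannot be told from those of the antisense genes that overlap them in GENCODE M21. Antisense genes overlap Pi16 and Tcf21 too, so reads in the overlap may have been left out of their counts. Columns were matched to samples by description, and 5 further columns were not used. Every one of 16 replicate pairs differed beyond sampling noise (chi-square per degree of freedom 2.49 to 12.4, genes with at least 20 counts), so each library counted as 1 sample.

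Genes kept by filterByExpr were TMM-scaled and tested with edgeR 4.0.16 in R 4.3.3 (quasi-likelihood F test, group only, Benjamini-Hochberg over all genes, threshold 0.05). The SE is the log2 fold change over the square root of F, and 95% intervals use 1.96 SE. Low genes and the receptor ratio (log2, prior count 2) used exact permutation tests; those of Thy1 and Dpt were added after their counts were seen. A gene at 0 in a group was given a floor of 3 counts over that group; floors and count intervals cover counting error only. Coordinates are RefSeq GRCm38, the build also named mm10; 22336 rows matched. Of 188 list entries, 187 were found. The markers and lists were chosen with earlier results of these data known. Named by rule were the 10 markers, the 3 widest changes past the threshold per related list (mean at least 1 CPM), and the 3 nearest profiles for the markers with the highest and lowest change, of which 1 is not reported here; other genes complete small families or cell type checks and were chosen after their values were seen. Alternatives were DESeq2 1.42.0, other scalings, no filter, a replicate block (without mutator replicate 5), chromosome medians and leaving out each library.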

Additional observations from a re-analysis of the deposited data

Results flagged for a closer look

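Cd34 stood at 4.66 CPM in mutator replicate 5, while the other 4 mutator libraries lay between 5.79 and 6.14 CPM. The gap exceeded the 95% critical value of Dixon's test. Of 15 marker-by-line groups examined, this was the 1 that did so, and chance gives about 1 in 20. Without that library the log2 fold change of Cd34 was -0.23 (edgeR adjusted p = 0.00578), so the fall remained past the threshold.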

How the results depend on the processing

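Ly6a, Pdgfrb, Pdgfra, Cd34 and Twist1 kept their direction and stayed past the threshold under all 15 alternatives. Their log2 fold changes ranged from 1.55 to 1.64, 0.507 to 0.664, -0.527 to -0.438, -0.317 to -0.226 and -0.235 to -0.166. S100a4 passed only relative to chromosome medians (0.736). It was not past the threshold but on the other side of 0 with DESeq2 size factors (-0.00124) and in DESeq2 (-0.00126), and S100a4 ranged from -0.0248 to 0.0206 with 1 library left out (edgeR adjusted p 0.37 to 0.976; -0.0182 without WT replicate 3, -0.0248 and -0.0019 without mutator replicates 1 and 2). The count of markers higher in mutator was 3 rather than 2 without the low-count filter (Thy1) and relative to chromosome medians (S100a4), and the count lower was 4 rather than 3 without the filter (Dpt). Without the filter, 8 rather than 5 adventitial genes rose, since more genes were tested; relative to chromosome medians 4 rather than 2 S100 genes rose. The receptor difference was -1.11 with a prior count of 0.5 and -1.04 relative to chromosome medians, and ran from -1.14 to -1.09 with 1 library left out, each at the smallest p its design allows. With 1 library left out, that p again followed from the separation of both receptors. Upper quartile scaling moved the median of all genes to 0.055.

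The labels give both lines the same replicate numbers, but same-numbered wells did not deviate together (correlations -0.08, 0.027, -0.034 and 0.004). The replicate block left out mutator replicate 5, which has no WT replicate of the same number. It gave log2 fold changes of 1.62 for Ly6a, 0.625 for Pdgfrb, -0.46 for Pdgfra, -0.226 for Cd34, -0.235 for Twist1 and 0.02 for S100a4, and changed no marker's call. Leaving out that library with no block gave -0.228 for Cd34. Over all genes the block called 5336 higher and 5121 lower, against 5438 and 5227 with every library. Without mutator replicate 5 and with no block, 5352 were called higher and 5116 lower. For Thy1 and Dpt, with at most 22 counts summed over a line, counting error limits the precision, and for Pi16 and Tcf21 the depth sets the upper limit given.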
